A study of Mus musculus with 16 samples.

Results

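The genes described here encode the oxidative phosphorylation system, the 5 enzyme complexes of the inner mitochondrial membrane, and were followed across 16 RNA-seq libraries of mouse brain CD11b+ cells, which are mostly microglia. Members were chosen by symbol: those starting with Nduf followed by a, b, c, s or v, Sdha to Sdhd, Uqcr, Cox4 to Cox8 or Atp5, and the mitochondrial-genome symbols mt.Nd, mt.Co, mt.Cyt and mt.At. Of 126 such symbols, 11 containing "ps" (pseudogenes) and 4 with fewer than 10 counts in total were left out. This left 111 of the 55385 genes listed, 98 in nuclear DNA and 13 in mitochondrial DNA. The nuclear members Cox6c2, Ndufb4c and Ndufs6b are pseudogenes in GENCODE but have no "ps" in their symbols. They stayed in and are part of all values given for the nuclear members. Of the 4 left out for low counts, Cox8c and Atp5o.1 had 0 counts and Cox7b2 and Ndufa11b had 2, and the members with the fewest counts were Ndufa4l2 with 14 and Cox4i2 with 19. After a filter on low counts 107 members (96 nuclear and 11 mitochondrial) remained among 14513 genes tested. Cox4i2, Ndufa4l2, mt.Atp8 (313 counts) and mt.Nd4l (235 counts) did not pass.

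The 4 genotypes, with 4 libraries each, were WT, Card9-/-, 5xFAD and Card9-/-5xFAD, all from female mice of 20 weeks. CARD9 is an adaptor protein of innate immune receptors and was deleted in the germline, so the deletion was in every cell and not only in microglia. The 5xFAD transgenes are human genes with mutations of familial Alzheimer's disease, driven by the neuronal Thy1 promoter, and lead to amyloid deposits in the brain. Cells were freed with papain from brains without meninges and choroid plexus and taken with magnetic beads against CD11b. Libraries bear replicate numbers but nothing in the sources used here ties each to its own animal, so the p-values measure the spread between these samples.

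Oxidative phosphorylation passes electrons from NADH through complex I, and from succinate through complex II, to complex III and then to oxygen at complex IV, and the proton gradient formed on the way drives ATP synthesis at complex V. The central subunits of complexes I, III and IV and a few of complex V are made inside the mitochondrion from its own circular DNA, while all subunits of complex II and the remaining ones of the others are encoded in the nucleus and imported. Microglia can draw their ATP from this pathway or from glycolysis, and the balance is known to move with their activation state.

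Between 2970148 and 19333325 reads per library were counted on genes. Levels are in CPM, counts divided by the TMM-scaled total of the library, so that libraries of unequal depth can be set side by side. Microglia markers were high in every library, with a sum of 15915 to 32804 CPM over 10 genes, while the 8 neuron markers summed to 1.48 to 18.6 CPM. The Card9 gene count did not separate the labels, at 13.6 to 51.3 CPM in WT, 16.7 to 34.8 CPM in libraries labelled Card9-/-, 15.6 to 33.5 CPM in 5xFAD and 9.73 to 33.7 CPM in libraries labelled Card9-/-5xFAD. Counts of whole genes cannot show whether the deleted exons were read. In each genotype 1 library stood above the others in nuclear members, namely WT replicate 1, Card9-/- replicate 4, 5xFAD replicate 1 and Card9-/-5xFAD replicate 4. Counts of called members and several median fold changes are given with and without some or all of these libraries. Sums, spreads and ratios include them. Because the samples are bulk, fewer cells of a type and less RNA per cell cannot be told apart.

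Promoters of 79 of the 98 nuclear members could be matched in RefSeq (GRCm38.p6, from 250 bases before to 50 after each gene's start). They were searched on both strands for 3 motifs known from promoters of respiratory genes, NRF1 (GCGCA, any base, GCGC), GABPA (CCGGAAG) and YY1 (AANATGGC). A gene was counted if any of its windows held the letters. Those of NRF1 were in 26.6% of the 79 members and in 5.19% of all 27025 genes with a promoter. The GABPA letters were in 27.8% against 9.93%, those of YY1 in 25.3% against 6.96%, and at least 1 of the 3 in 67.1% against 19.4%. Matches of different motifs were counted separately, also where they overlapped, and a match is a description of the sequence, not of binding. Below, 4 windows are shown for members whose values are given later, each holding a different combination of motifs, with every match on either strand in capitals. Their positions are chr5:115348909-115349208 on the minus strand for Cox6a1, chr15:102670998-102671297 on the minus strand for Atp5g2, chr2:90904672-90904971 on the minus strand for Ndufs3 and chr3:32736813-32737112 on the plus strand for Ndufb5.
Cox6a1: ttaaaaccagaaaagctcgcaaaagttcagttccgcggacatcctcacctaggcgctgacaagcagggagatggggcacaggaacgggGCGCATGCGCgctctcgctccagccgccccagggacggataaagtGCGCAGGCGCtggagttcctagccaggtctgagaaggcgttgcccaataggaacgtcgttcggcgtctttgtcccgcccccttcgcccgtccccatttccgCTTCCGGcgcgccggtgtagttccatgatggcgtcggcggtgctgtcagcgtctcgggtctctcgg
Atp5g2: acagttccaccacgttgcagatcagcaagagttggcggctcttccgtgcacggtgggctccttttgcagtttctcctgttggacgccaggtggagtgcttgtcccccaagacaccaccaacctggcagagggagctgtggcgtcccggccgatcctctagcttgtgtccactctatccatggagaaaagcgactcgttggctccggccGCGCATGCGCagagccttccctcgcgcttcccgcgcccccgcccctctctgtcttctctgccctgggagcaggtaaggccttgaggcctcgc
Ndufs3: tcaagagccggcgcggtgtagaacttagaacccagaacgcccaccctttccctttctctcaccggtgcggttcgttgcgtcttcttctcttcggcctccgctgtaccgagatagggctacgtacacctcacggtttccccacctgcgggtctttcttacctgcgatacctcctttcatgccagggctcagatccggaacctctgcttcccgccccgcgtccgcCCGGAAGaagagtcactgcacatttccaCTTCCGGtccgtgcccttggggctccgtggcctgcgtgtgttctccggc
Ndufb5: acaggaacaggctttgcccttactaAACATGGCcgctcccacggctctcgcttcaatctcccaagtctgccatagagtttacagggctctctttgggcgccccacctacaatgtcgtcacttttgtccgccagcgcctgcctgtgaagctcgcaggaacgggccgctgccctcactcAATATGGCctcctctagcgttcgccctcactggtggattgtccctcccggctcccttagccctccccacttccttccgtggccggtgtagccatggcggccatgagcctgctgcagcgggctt
Cox6a1 held 2 NRF1 matches and 1 of GABPA, Atp5g2 held 1 NRF1 match, Ndufs3 held 2 of GABPA and Ndufb5 held 2 of YY1. The window of Cox7a2l held none. Cox6a2 and Cox4i1 were not matched.

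Whether the amyloid transgenes changed these genes was asked first in each Card9 genotype and then with both averaged. No member passed an FDR of 0.1 in edgeR's quasi-likelihood test of 5xFAD against WT (2.09% of all genes did) or of Card9-/-5xFAD against Card9-/- (1.97% of all genes). At an unadjusted p under 0.05 the counts were 6 and 19 of 107 members, all higher with the transgenes, beside 10.8% and 12.2% of all genes in either direction. DESeq2 on all libraries called 1 and 9 members, beside 3.24% and 4.82% of all genes. With the transgenes averaged over the Card9 genotypes, 13 members (12.1% of 107) rose and 0 fell, while 11.3% of all genes were called in either direction and 5.62% as higher. The members' share was thus near the background in either direction and above it among higher calls. The ranges of the 4 and 4 libraries did not overlap, with the transgenes higher, for 5 members in 5xFAD against WT (4.35% of all genes) and for 8 in Card9-/-5xFAD against Card9-/- (3.53%).

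The 13 were Ndufb5, Ndufs3, Ndufv2 and mt.Nd1 of complex I, Sdhb of complex II, mt.Cytb of complex III, Cox4i1, Cox6a2, Cox7a2l and mt.Co1 of complex IV, and Atp5c1, Atp5d and Atp5g2 of complex V. Deviations from the group means were correlated between libraries of the same number in each transgene comparison, at 0.13 to 0.73. For replicates 2 and 3, however, a library of another number matched better. With the number as a block within each Card9 genotype, chosen after the data were seen, many more members were called. This fit called 37 members higher and 0 lower in 5xFAD against WT (16% of all genes in either direction), 75 higher and 0 lower in Card9-/-5xFAD against Card9-/- (20.4%), and 86 higher and 1 lower with the transgenes averaged (41.9%). The 1 lower was Ndufaf7, an assembly factor of complex I, at a log2 fold change of -0.36. All 13 members called without the block were among the 86, and all 13 were called by DESeq2 on all libraries too.

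Cox6a2, which encodes the form of a cytochrome c oxidase subunit known from heart and skeletal muscle, had the largest averaged fold change among the 107 members. The gene lies on the minus strand at chr7:128205435-128206387 in GRCm38, inside Itgad on the plus strand, and 70 of its 680 exonic bases are also in an Itgad exon. Its CPM in replicates 1 to 4 was 78.7, 8.56, 14.0 and 7.38 in WT and 8.77, 3.97, 7.65 and 133 in libraries labelled Card9-/-. With the transgenes the 5xFAD libraries had 632, 335, 373 and 187 CPM, and those of Card9-/-5xFAD had 194, 171, 349 and 1089 CPM. All 8 libraries with the transgenes (171 to 1089 CPM) were above all 8 without (3.97 to 133 CPM), so the groups did not overlap. Itgad itself, whose reads cannot be told apart from those of Cox6a2 without strand over the shared bases, was at 0.331 to 3.27 CPM in the 16 libraries.

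The log2 fold change of Cox6a2 was 3.82 in 5xFAD against WT and 3.58 in Card9-/-5xFAD against Card9-/-, where its FDR of 0.150 and 0.160 missed the threshold. Averaged over both it was 3.70 ± 0.80 (SE, FDR = 0.0105, edgeR). With the replicate block within Card9 genotype the 2 comparisons gave 4.42 (FDR = 7.54e-05) and 4.61 (FDR = 7.66e-05). The interaction, which asks whether the transgene difference depends on Card9, was -0.24 on the log2 scale and missed the threshold.

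Its partner Cox6a1, the form found in most tissues, was at 102 to 2868 CPM and moved with the library as most members did. Per kilobase of exon, Cox6a2 came to 6.74, 3.14, 4.03 and 3.74% of Cox6a1 in WT and to 5.05, 4.03, 3.86 and 9.12% in libraries labelled Card9-/-. It came to 46.6, 45.0, 47.6 and 42.6% in 5xFAD and to 73.8, 58.0, 45.7 and 39.2% in Card9-/-5xFAD. The ratio removed most of the spread between libraries of a genotype, and the lowest library with the transgenes (39.2%) was above the highest without (9.12%). On the log2 scale the ratio differed by 3.42 in 5xFAD against WT and by 3.35 in Card9-/-5xFAD against Card9-/-. The Card9 comparisons gave differences of 0.29 and 0.21. This ratio was computed after the values of Cox6a2 had been seen, so these differences are a description without a test.

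**Figure D1:**
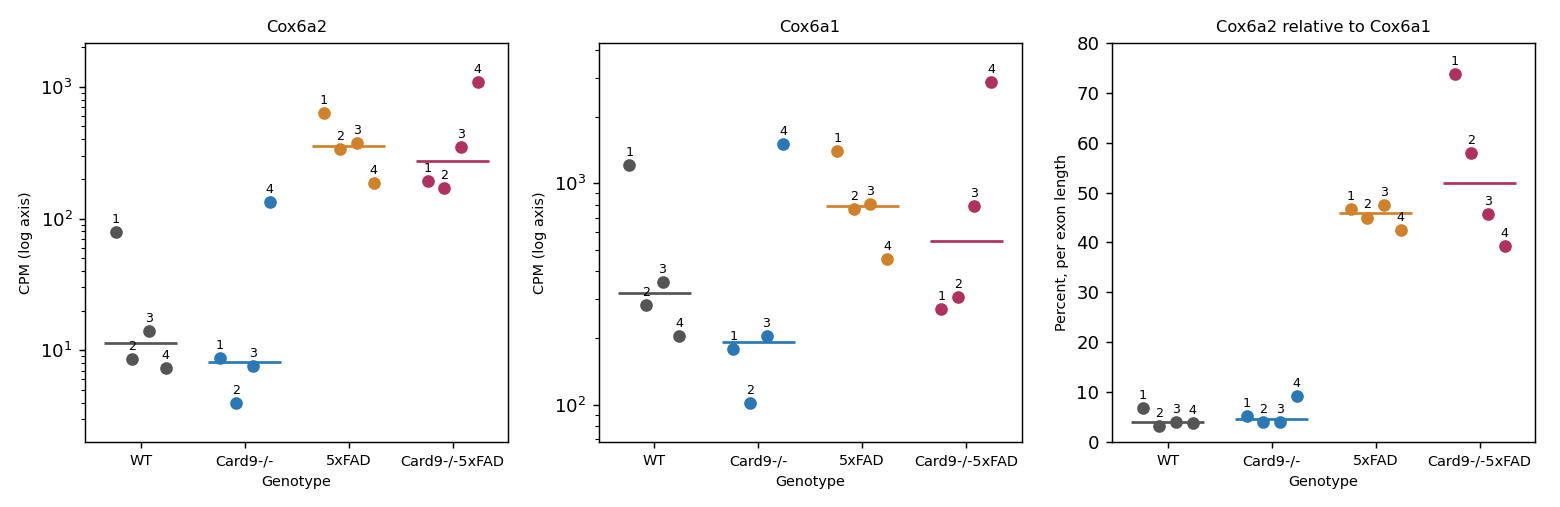
CPM of Cox6a2 and of Cox6a1 on log axes, and Cox6a2 as a percent of Cox6a1 per exon length on a linear axis, by genotype. Points are libraries with their replicate numbers and bars are medians. Cox6a2 was at 171 to 1089 CPM in the 8 libraries with the transgenes and at 3.97 to 133 CPM in the 8 without, and the ratio at 39.2 to 73.8% and 3.14 to 9.12%.

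Other tissue forms of complex IV subunits did not share this pattern. Cox6b2, a form known from testis, was at 1.57 to 127 CPM with its highest value in Card9-/- replicate 4, where Cox7a1 (23.6 CPM) and Cox8b (47.8 CPM), forms known from muscle, were also at their highest. In the other 15 libraries Cox7a1 was at 0.414 to 10.4 CPM and Cox8b at 0 to 8.27 CPM. None of the 3 passed the test in any comparison. Cox4i2, Ndufa4l2 and Cox7b2 were at most at 0.545, 0.695 and 0.400 CPM, and Cox8c had no counts, whereas their common partners Cox4i1, Ndufa4, Cox7b and Cox8a had medians of 519, 216, 138 and 373 CPM.

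In complex IV, Cox4i1, an early nuclear subunit of the enzyme, was at 1010, 363, 412 and 324 CPM in WT, 304, 146, 278 and 509 CPM in Card9-/-, 1353, 859, 952 and 583 CPM in 5xFAD and 528, 502, 948 and 1510 CPM in Card9-/-5xFAD. The groups overlapped, through WT replicate 1 on the one side and Card9-/- replicate 4 on the other, and its averaged log2 fold change was 1.16 ± 0.34 (SE, FDR = 0.0520). Cox7a2l, a factor that joins complexes III and IV into supercomplexes, was the steadiest of the called members, with an SD of log2 CPM within genotypes of 0.32. It was at 153, 136, 154 and 126 CPM in WT, 115, 72.1, 110 and 164 CPM in Card9-/-, 252, 216, 241 and 162 CPM in 5xFAD and 224, 177, 242 and 167 CPM in Card9-/-5xFAD. All 4 libraries of 5xFAD were above all 4 of WT, and all 4 of Card9-/-5xFAD above all 4 of Card9-/-. The averaged log2 fold change of Cox7a2l was 0.71 ± 0.19 (SE, FDR = 0.0343).

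In complex V, the ATP synthase, the 3 called members belong to its central stalk or its c-ring. Atp5g2, a gene for the c-ring, was at 163, 88.5, 101 and 90.9 CPM in WT, 77.7, 46.3, 75.5 and 112 CPM in Card9-/-, 219, 176, 156 and 124 CPM in 5xFAD and 137, 123, 147 and 197 CPM in Card9-/-5xFAD. The averaged log2 fold change was 0.78 ± 0.22 (SE, FDR = 0.0425). Card9-/-5xFAD and Card9-/- did not overlap for Atp5g2, and 5xFAD and WT did. Its sister genes Atp5g1 and Atp5g3, which encode the same mature protein, were at 62.7 to 1365 and 73.0 to 652 CPM and missed the threshold. Atp5c1, the gamma subunit of the rotating stalk, was at 217, 334, 343 and 273 CPM in WT, 271, 163, 273 and 189 CPM in Card9-/-, 504, 482, 499 and 366 CPM in 5xFAD and 387, 376, 522 and 192 CPM in Card9-/-5xFAD. All 5xFAD libraries were above all WT libraries, while Card9-/-5xFAD replicate 4 (192 CPM) lay within the Card9-/- range. Atp5d, the delta subunit of the same stalk, was at 171 to 377 CPM in WT, 118 to 170 CPM in Card9-/-, 256 to 492 CPM in 5xFAD and 213 to 375 CPM in Card9-/-5xFAD. All 4 Card9-/-5xFAD libraries were above all 4 Card9-/- libraries for Atp5d, while 5xFAD and WT overlapped.

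In complex I, the called members were Ndufs3 and Ndufv2 of the arm that takes electrons from NADH and Ndufb5 of the membrane arm. Ndufs3 was at 183, 131, 143 and 95.0 CPM in WT, 89.6, 66.0, 96.9 and 43.2 CPM in Card9-/-, 263, 184, 201 and 132 CPM in 5xFAD and 109, 120, 198 and 118 CPM in Card9-/-5xFAD. All Card9-/-5xFAD libraries of Ndufs3 were above all Card9-/- libraries, and WT and 5xFAD overlapped. Ndufb5 was at 63.7 to 147 CPM in WT, 40.5 to 66.8 CPM in Card9-/-, 97.9 to 190 CPM in 5xFAD and 79.8 to 155 CPM in Card9-/-5xFAD, and it too overlapped between 5xFAD and WT only. Ndufv2 was at 161 to 353 CPM in WT, 92.0 to 172 CPM in Card9-/-, 221 to 414 CPM in 5xFAD and 199 to 361 CPM in Card9-/-5xFAD, with the same overlap. The averaged log2 fold changes were 0.69 for Ndufs3 (FDR = 0.0820), 0.80 for Ndufb5 (FDR = 0.0536) and 0.67 for Ndufv2 (FDR = 0.0904). Of the 8 assembly factors of complex I none passed, and their median was 0.35 beside 0.54 for the 36 nuclear subunits.

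Complex II has no subunit in mitochondrial DNA and also serves the citric acid cycle. Its iron-sulfur subunit gene Sdhb was at 299, 326, 323 and 225 CPM in WT, 212, 133, 232 and 133 CPM in Card9-/-, 501, 424, 478 and 310 CPM in 5xFAD and 271, 283, 436 and 206 CPM in Card9-/-5xFAD. The averaged log2 fold change was 0.65 ± 0.21 (SE, FDR = 0.0772). Sdhb overlapped between the groups in both transgene comparisons. The flavoprotein gene Sdha had a log2 fold change of -0.18 and the membrane anchors Sdhc and Sdhd 0.53 and 0.61, and these 3 missed the threshold. In complex III, all 8 nuclear members had values above 0, from 0.34 for Uqcrc2 to 0.76, and none was called.

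Among the mitochondrial genes, mt.Nd1 of complex I was at 1388, 923, 1159 and 881 CPM in WT, 820, 499, 863 and 1618 CPM in Card9-/-, 1983, 1778, 2097 and 1209 CPM in 5xFAD and 1539, 1193, 2261 and 2364 CPM in Card9-/-5xFAD. mt.Co1, the catalytic subunit of complex IV, was at 1002 to 1349, 633 to 1318, 1166 to 2229 and 1155 to 2358 CPM in the same order of groups. mt.Cytb, the cytochrome b of complex III and the highest member per kilobase (median 1769 CPM per kb), was at 1373 to 2646, 762 to 2546, 1802 to 4240 and 1711 to 3656 CPM. The groups overlapped for all 3, and the averaged log2 fold changes were 0.83 for mt.Nd1 (FDR = 0.0616), 0.73 for mt.Co1 (FDR = 0.0614) and 0.83 for mt.Cytb (FDR = 0.0921).

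Beyond single genes, nearly all nuclear members had a positive fold change, though few passed a test alone. In 5xFAD against WT 90 of the 96 nuclear members were above 0 with a median log2 fold change of 0.47, and in Card9-/-5xFAD against Card9-/- 88 were, with a median of 0.58. Over all genes tested 38.9% and 39.4% were above 0 and both medians were -0.15. The 11 mitochondrial members had medians of 0.70 and 0.84. The averaged medians were alike across complexes, at 0.50 for the 46 nuclear members of complex I, 0.49 for the 8 of complex II, 0.52 for the 8 of complex III, 0.65 for the 17 of complex IV and 0.58 for the 17 of complex V.

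**Figure D2:**
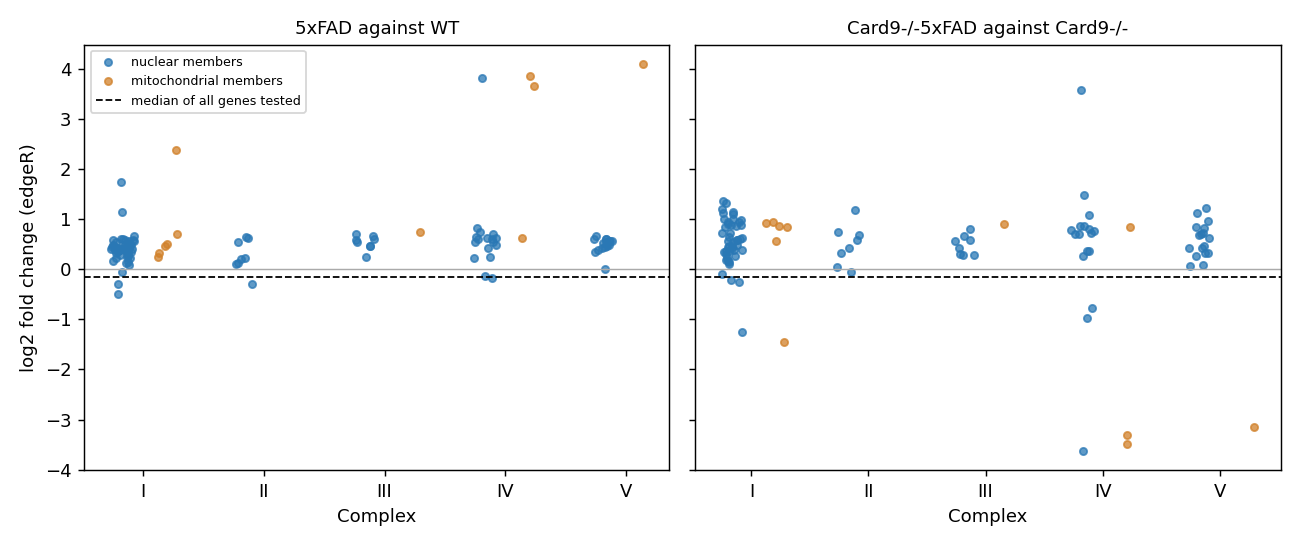
Log2 fold change (edgeR) of each of the 107 tested members by complex in the transgene comparison of either Card9 genotype, nuclear and mitochondrial members in separate colours, with the median of all genes tested as a dashed line at -0.15. Of the 96 nuclear points, 90 and 88 lie above 0, and the mitochondrial points beyond 2 on the left and below -1 on the right are the genes with a nuclear copy.

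The same direction held within pairs of libraries of 1 number. Of the 96 nuclear members, 58, 89, 92 and 91 were higher in the 5xFAD library than in the WT library of replicates 1 to 4, and 83, 95, 92 and 73 were higher in Card9-/-5xFAD than in Card9-/-. The smallest counts came from the pairs that hold the high libraries of both genotypes, replicate 1 and replicate 4. With the 4 high libraries left out, a choice made after the data were seen, 12 members were called in 5xFAD against WT (7.97% of all genes), 69 in Card9-/-5xFAD against Card9-/- (16.7%) and 88 with the transgenes averaged (34.5%). Leaving out 1 library also moved the averaged count of 13, to between 3 and 67. The 67 (20.5% of all genes) came without Card9-/- replicate 4, which also moved the nuclear median of Card9-/-5xFAD against Card9-/- from 0.58 to 1.90, while without Card9-/-5xFAD replicate 4 that median was -0.09.

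The cytosolic ribosomal protein genes moved together with the members. Their median log2 fold change was 0.68 in 5xFAD against WT and 0.83 in Card9-/-5xFAD against Card9-/-, above those of the nuclear members, and 17 of 81 were called with the transgenes averaged. With the mean level of these genes in each library as a covariate, added after the data were seen, the nuclear members' medians turned to -0.37, -0.28 and -0.29 in the 2 comparisons and their average. Because the ribosomal protein genes rose with the transgenes by more than the nuclear members did, this sign is not read as a fall of the members. This fit called 63 members with the transgenes averaged, 20 of them higher and 43 lower, beside 41.4% of all genes. Of the 13 called without it, Atp5c1, Atp5d, Atp5g2, Cox4i1, Cox6a2, Cox7a2l, Ndufs3 and Sdhb were called higher here too, and Ndufb5, Ndufv2, mt.Nd1, mt.Co1 and mt.Cytb were not. Cox6a2 was at 2.88 and 2.67 on the log2 scale in the 2 comparisons of this fit. The sign of the nuclear median therefore depended on whether the ribosomal protein genes were in the model, while these 8 genes were called higher in both fits. The others of the 13 lost the call but kept their direction.

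Lists for cell handling and for other cell types were looked at in the same transgene comparisons. The 23 early response genes, many of which cells induce while a tissue is taken apart, were chosen with earlier results known and had a median log2 fold change of -0.63 in 5xFAD against WT, with 20 below 0, and of -0.17 in Card9-/-5xFAD against Card9-/-, with 15 below 0. Averaged over both Card9 genotypes 18 were below 0, and the nuclear receptor Nr4a1 (-1.38, FDR = 0.0346 in edgeR) and the heat shock gene Hspa1a (-0.80, FDR = 0.0807 in edgeR) were called lower. The 4 border-associated macrophage markers summed to 306 to 445 CPM in 5xFAD, wholly below the 529 to 986 CPM of WT, and to 229 to 1273 CPM in Card9-/-5xFAD beside 520 to 1368 CPM in Card9-/-. Of these markers Mrc1 (-1.24), Cd163 (-1.30) and Lyve1 (-1.04) were called lower in the averaged test, and Pf4 was not called. In that test 2 of 6 astrocyte, 1 of 4 endothelial, 1 of 4 neutrophil and 1 of 3 monocyte markers were called. Of the neuron, oligodendrocyte, choroid plexus or ependymal, red blood cell, T or NK cell and B cell markers 0 were. The part of any of these lists in the members' values was not tested.

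Card9 loss was asked about with and without the transgenes. No member passed in Card9-/- against WT, in Card9-/-5xFAD against 5xFAD or in the interaction, and no gene of the 14513 did (0% in each) in edgeR, while DESeq2 on all libraries also called 0 members in all 3. At an unadjusted p under 0.05, the counts of members were 9, 0 and 3, beside 4.11%, 2.52% and 0.537% of all genes. The 9 were Ndufs3, Ndufs8, Ndufv2, Sdhb and Atp5d, which were lower in the libraries labelled Card9-/-, and mt.Co2, mt.Atp6, mt.Co3 and mt.Nd3, which were high in 1 Card9-/- library, replicate 4. Nuclear medians were -0.04 in Card9-/- against WT and 0.22 in Card9-/-5xFAD against 5xFAD, beside 0.11 and 0.14 for all genes. The early response genes were above these medians, at 0.31 with 20 of 23 above 0 in Card9-/- against WT and at 0.75 with all 23 above 0 in Card9-/-5xFAD against 5xFAD. None of the 23 was called in edgeR. The paper, which used DESeq2, reports Klf4, a gene among the 23, as higher in Card9-/-5xFAD than in 5xFAD. It reports the same direction for Klf4 by qPCR. The paper also names further genes as changed in both Card9 comparisons, none of them a member. The part of the early response genes in the members' values was not tested.

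Single libraries set these medians. Without Card9-/- replicate 4 the nuclear median of Card9-/- against WT was -1.23 and the mitochondrial one -0.61, from 0.14 with it, and still no member was called. Without Card9-/-5xFAD replicate 4 the nuclear median of Card9-/-5xFAD against 5xFAD was -0.63. The Card9-/- libraries were wholly below those of WT for 3 of the 107 tested members, beside 1.6% of all genes, and wholly above for 0. These were Atp5d, a subunit of the central stalk of complex V (118 to 170 CPM against 171 to 377 CPM), Ndufs8, an iron-sulfur subunit of complex I (119 to 202 CPM against 203 to 659 CPM), and Ndufaf5, an assembly factor of complex I (4.26 to 8.24 CPM against 9.51 to 10.5 CPM). Their log2 fold changes of -0.76, -1.02 and -0.61 each had an FDR of 0.970 in edgeR. Ndufs3 was at 43.2 to 96.9 CPM in Card9-/- and at 95.0 to 183 CPM in WT, so that its ranges just overlapped, and its log2 fold change of -0.90 had the same FDR.

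The members' summed level differed between libraries of 1 genotype by more than it did between genotypes. The sum over the 98 nuclear members was lowest in Card9-/- replicate 2 (6439 CPM) and highest in Card9-/-5xFAD replicate 4 (64409 CPM). The ranges were 10903 to 32966 CPM in WT, 6439 to 48991 CPM in Card9-/-, 16798 to 36490 CPM in 5xFAD and 13533 to 64409 CPM in Card9-/-5xFAD. Complex IV varied most, 17.3-fold between its lowest and highest library, complexes I, III and V 11.8-fold, 11.6-fold and 7.19-fold, and complex II only 2.94-fold. The 13 mitochondrial members summed to 2922 to 14297 CPM. These ranges all overlapped between the 4 genotypes.

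**Figure D3:**
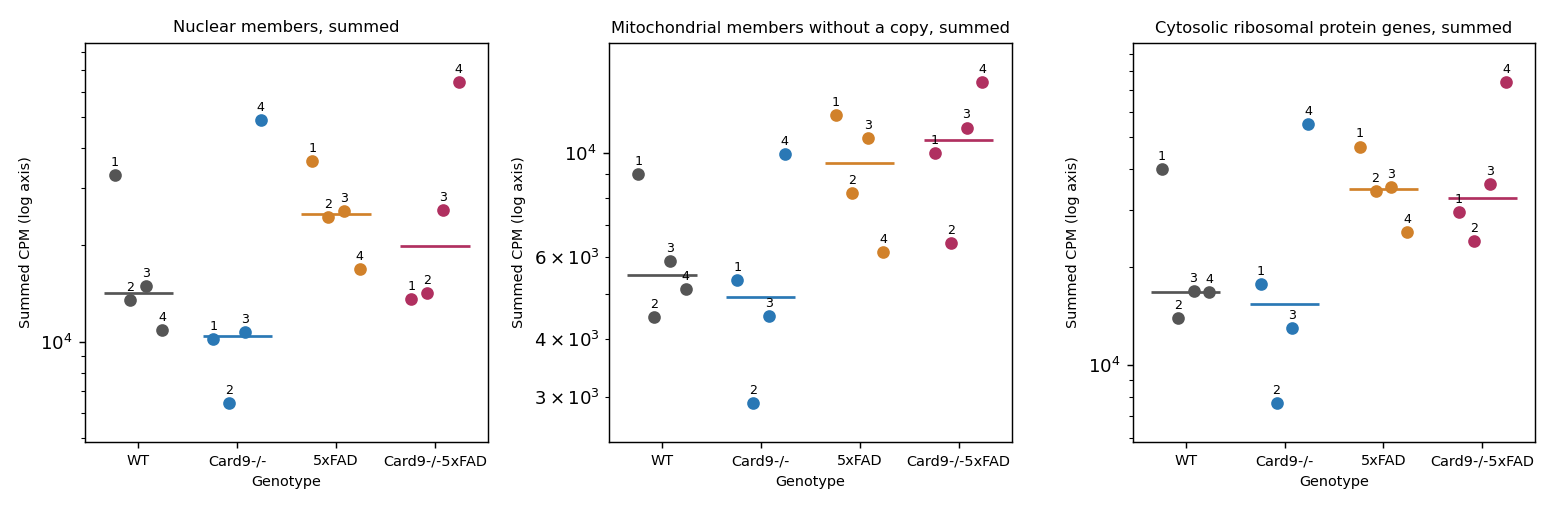
Summed CPM of the nuclear members, of the mitochondrial members without the 6 low ones and of the cytosolic ribosomal protein genes, by genotype on log axes. Points are libraries with their replicate numbers and bars are medians. The highest library of nuclear members in each genotype (32966 CPM in WT, 48991 in Card9-/-, 36490 in 5xFAD and 64409 in Card9-/-5xFAD) was also the highest for the other 2 sums.

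The same 4 libraries, the highest of their genotypes, were also the highest for the sums of neutrophil, choroid plexus, red blood cell, monocyte, border-associated macrophage and endothelial markers. The 4 neutrophil markers, for example, summed to 5843 CPM in Card9-/- replicate 4 and to 5104 CPM in Card9-/-5xFAD replicate 4, and their lowest sum was 349 CPM. The 4 choroid plexus or ependymal markers ranged from 3.06 to 2491 CPM, and the 5 red blood cell markers from 1.18 to 133 CPM. The sum of the 10 microglia markers was the lowest of its genotype in the same 4 libraries. It was 15915 CPM in WT replicate 1, 17881 in Card9-/- replicate 4, 20122 in 5xFAD replicate 1 and 18753 in Card9-/-5xFAD replicate 4. Astrocyte markers were highest in these 4 too, while neuron, oligodendrocyte, T or NK cell and B cell markers were not highest in all. Card9-/-5xFAD replicate 4 and Card9-/- replicate 4 also had the fewest counts of all 16 libraries, 2970148 and 3229322. The part of other cells and of depth in the members' level was not tested.

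Not every member followed this rise, and single members of the same complex went opposite ways in these libraries. Ndufa1, a small membrane-arm subunit of complex I, was at 1340 and 1944 CPM in Card9-/- replicate 4 and Card9-/-5xFAD replicate 4 and at 38.0 to 98.3 and 205 to 553 CPM in the other 3 libraries of each genotype. Uqcrc2, a core protein of complex III, was at 20.3 and 13.6 CPM in the same 2 libraries and at 69.9 to 108 and 123 to 132 CPM in the others. Uqcrc2 was also lowest in WT replicate 1 (26.4 CPM against 94.9 to 138 CPM) and in 5xFAD replicate 1 (63.7 CPM against 120 to 142 CPM). Ndufaf7 was lowest in the same 4 libraries. Atp5a1, the alpha subunit of ATP synthase, stayed at 232 to 516 CPM in all 16 libraries.

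The spread within genotypes went with exon length, taken as the union of all annotated exons of a gene. This can exceed the length of a single transcript. The median SD of log2 CPM was 1.10 for the nuclear members, higher than for 88.4% of genes tested, beside 0.62 for all genes, 0.90 for the ribosomal protein genes, 0.53 for 77 genes of the mitochondrial ribosome and 0.57 for the 7 mitochondrial members outside the low ones. The least variable was Sdhaf2, an assembly factor of complex II, at 0.25 (37.7 to 66.2 CPM over the 16 libraries). Across genes, which are not independent replicates, Spearman's rho of exon length and this SD was -0.47 over the 96 nuclear members and -0.40 over 14298 genes with a length. The 25 nuclear members under 1 kb had a median SD of 1.33 and other genes of that length 1.03, and the 13 over 4 kb had 0.64 beside 0.53. The averaged transgene difference had medians of 0.56 for members under 1 kb, 0.59 for 1 to 2 kb, 0.52 for 2 to 4 kb and 0.41 over 4 kb. Other genes of those lengths had 0.20, 0.12, -0.12 and -0.24. Spearman's rho of exon length and this difference was -0.24 over the nuclear members and -0.23 over all genes with a length.

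**Figure D4:**
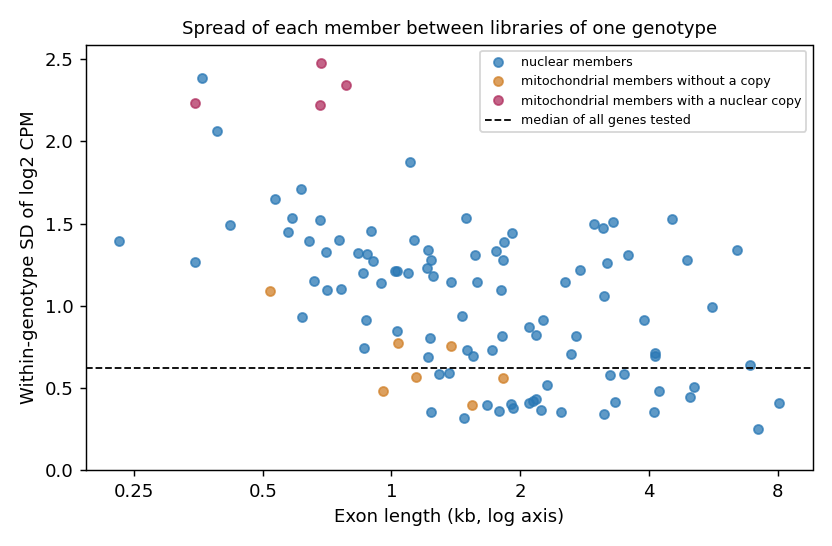
SD of log2 CPM within genotypes against exon length (kb, log axis) for each tested member, with the median SD of all genes (0.62) as a dashed line. Nuclear members under 1 kb had a median of 1.33 and those over 4 kb of 0.64, and the 4 tested mitochondrial members with a nuclear copy lie above 2.

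Nuclear and mitochondrial members did not keep a fixed ratio. The mitochondrial sum divided by the nuclear sum was 0.274, 0.332, 0.396 and 0.470 in WT, 0.527, 0.454, 0.419 and 0.235 in Card9-/-, 0.360, 0.337, 0.424 and 0.367 in 5xFAD, and lastly 0.739, 0.454, 0.444 and 0.222 in Card9-/-5xFAD. The means were 0.368 ± 0.084, 0.409 ± 0.124, 0.372 ± 0.037 and 0.465 ± 0.212 (SD, n = 4 each), so that genotypes differed by less than the spread within Card9-/-5xFAD. The lowest ratios were those of the 3 libraries with high nuclear sums in WT, Card9-/- and Card9-/-5xFAD, while 5xFAD replicate 1 (0.360) stood among its group.

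Of the 13 mitochondrial members, 6 (mt.Co2, mt.Co3, mt.Atp6, mt.Atp8, mt.Nd3 and mt.Nd4l) were nearly absent from most libraries, although the mitochondrial genome is transcribed as long molecules that span many genes. Their sum was 1562 CPM in Card9-/- replicate 4, 1077 CPM in 5xFAD replicate 1 and 4.88 to 122 CPM in the other 14 libraries. mt.Co2, for example, was at 473 and 291 CPM in these 2 libraries and at 1.32 to 28.4 CPM in the others, while mt.Co1 was at 633 to 2358 CPM throughout. mt.Nd3 was at 154 and 40.8 CPM in the 2 libraries and at 0.372 to 46.1 CPM in the others. mt.Atp8 had counts in 4 libraries only, at 34.3 and 31.2 CPM in the 2 and at most at 0.136 CPM elsewhere.

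Of these, 5 have a nearly identical copy on chromosome 1, in a run of pseudogenes at chr1:24611535-24616197 on the minus strand (GRCm38, GENCODE M21). mt.Co2, mt.Atp6, mt.Co3 and mt.Nd4l matched their copies without a difference over 681, 678, 783 and 294 bases, and mt.Nd3 differed by 1 base of 345. mt.Nd4 matched over its first 876 bases, and mt.Co1 over its last 492 with 6 differences. The first 60 bases of mt.Co2 and of its copy Gm28661, and bases 1054 to 1113 of mt.Co1 and of its copy Gm29216, are shown with differing bases in capitals. mt.Co2 is shown as a gene that cannot be told from its copy, and mt.Co1 as a gene whose copy covers only its last part.
mt.Co2: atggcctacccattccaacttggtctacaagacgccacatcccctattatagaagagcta
Gm28661: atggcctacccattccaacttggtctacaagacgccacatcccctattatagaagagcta
mt.Co1: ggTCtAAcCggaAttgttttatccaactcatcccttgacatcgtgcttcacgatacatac
Gm29216: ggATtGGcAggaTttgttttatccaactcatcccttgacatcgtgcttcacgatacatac
The 6 differences of mt.Co1 are T1056A, C1057T, A1059G, A1060G, C1062A and A1066T, counted from the first base of the gene, and no read inside the remaining stretch can be assigned to 1 of the 2 loci.

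The share of 100-base windows found also in another annotated transcript was 99.5% for mt.Co2 and mt.Atp6, 99.9% for mt.Co3, 97.6% for mt.Nd3, 98.5% for mt.Nd4l, 60.8% for mt.Nd4, 30.8% for mt.Co1, 3.20% for mt.Nd2 and 0 for mt.Nd1, mt.Nd5, mt.Nd6, mt.Cytb and mt.Atp8. The pseudogenes themselves were counted at 1973 CPM in Card9-/- replicate 4, 1562 CPM in 5xFAD replicate 1 and 14.3 to 388 CPM in the others, so they were high in the same 2 libraries. How reads with several matches were counted is not given in the sources used here, and the values of these genes are uncertain for that reason. Their fitted log2 differences were the largest of all members in the interaction, from -3.84 for mt.Nd3 to -7.34 for mt.Co2, and none passed (lowest unadjusted p 0.00493, for mt.Atp6, edgeR quasi-likelihood test, FDR = 1.00). Leaving them out, the medians of the other 7 mitochondrial members were 0.50 in 5xFAD against WT, 0.87 in Card9-/-5xFAD against Card9-/-, 0.14 in Card9-/- against WT and 0.52 in Card9-/-5xFAD against 5xFAD.

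**Figure D5:**
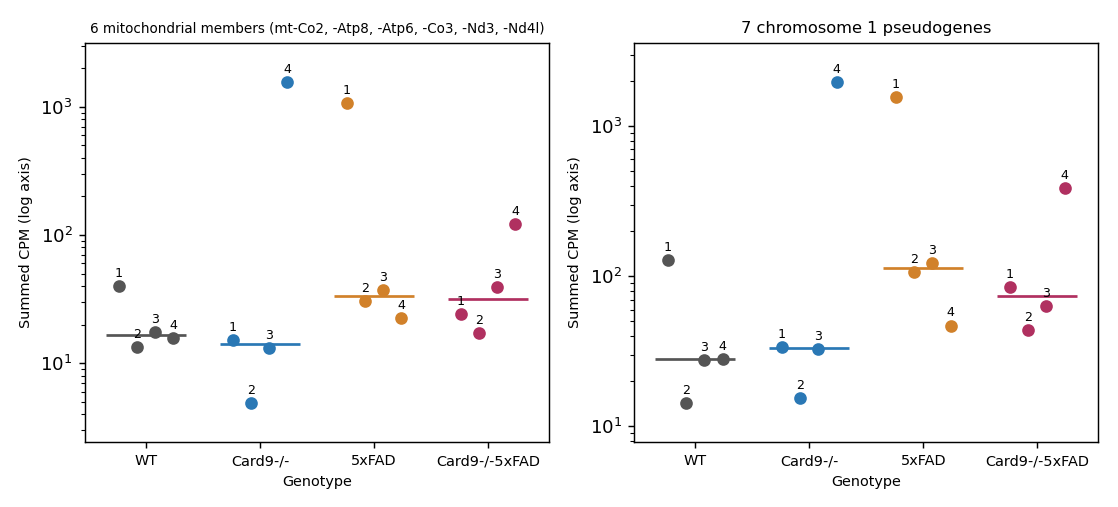
Summed CPM of the 6 low mitochondrial members and of 7 pseudogenes on chromosome 1, by genotype on log axes. Points are libraries with their replicate numbers and bars are medians. Card9-/- replicate 4 (1562 and 1973 CPM) and 5xFAD replicate 1 (1077 and 1562 CPM) stand above the other 14 libraries in both.

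Per kilobase of exon, the highest members were mt.Cytb (median 1769 CPM per kb), mt.Nd1 (1357), mt.Co1 (833) and mt.Nd2 (807), followed by the nuclear Cox8a (603), Cox6a1 (579), Ndufa1 (576) and Cox6b1 (526).

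Genes that serve the same pathway but lie outside the symbol rule were taken from 8 lists chosen with earlier results of these data known. Coq7, an enzyme of ubiquinone synthesis, was the only one of 11 mobile carriers and further subunits called, with a log2 fold change of 1.33 (FDR = 0.0822) in 5xFAD against WT, 1.71 (FDR = 0.0247) in Card9-/-5xFAD against Card9-/- and 1.52 ± 0.25 (SE, FDR = 0.00128) averaged, all in edgeR. It was at 13.7 to 63.7 CPM in the 8 libraries without the transgenes and at 43.8 to 147 CPM in the 8 with them. Of 36 assembly factors outside the rule Cox19 (0.61) and Surf1 (0.64) of complex IV rose in the averaged test, and of 7 carriers the ADP/ATP carrier Slc25a5 (0.72) and the uncoupling protein Ucp2 (0.82) did. The 2 of 36 assembly factors are near the 5.62% of all genes called higher in that test.

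The mitochondrial ribosome, which makes the 13 proteins of mitochondrial DNA, had 7 of 77 genes called higher and 0 lower in the averaged test, beside 5.62% of all genes called higher, with a median of 0.44. None of the 17 citric acid cycle genes, 18 genes of mitochondrial transcription and RNA handling, 9 nuclear regulators or 3 mitochondrial rRNA and tRNA genes passed in any comparison, with averaged medians of 0.09, -0.07, -0.25 and 0.59. The nuclear members' median of 0.53 was thus above those of the regulators and of the cycle, and below the 0.74 of the ribosomal protein genes, as descriptions without a test.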

How the data were processed

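Strand setting, annotation and the handling of reads with several matches are not given in the sources used here. HISAT2 (alignment to mm10), SAMtools (filtering) and HTSeq (counting per gene) were used by the authors, and raw read counts per gene symbol were deposited for 16 libraries, 4 per genotype, at 2970148 to 19333325 counts each. At these depths the members with 14 and 19 counts were too low to test. The authors tested with DESeq2 at an FDR under 0.1.

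All 16 libraries were fitted together in edgeR 4.0.16 (R 4.3.3) by the quasi-likelihood test with TMM and filterByExpr at a minimum count of 10. The 14513 p-values of a contrast were adjusted after Benjamini and Hochberg, and genes with an FDR under 0.1 were called. The 6 contrasts were the 4 pairwise ones, the interaction and the transgenes averaged over Card9 genotypes. SEs came from the fold change and its F statistic, and log2 CPM used a prior count of 2. Exon lengths (the union of all annotated exons of a gene), positions and transcripts came from GENCODE M21 (GRCm38) and promoters from RefSeq. The steps were tested on simulated data. No pair of libraries of a genotype was a copy.

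Members and lists were chosen with earlier results of these data known. Named were the mitochondrial members, the members called in any contrast, the 5 of lowest p per contrast, the 2 highest nuclear subunits per complex, the isoform families and the members of widest and narrowest spread. Uqcrc2, Ndufaf7, Sdha and the genes outside the rule were named after their values were seen.

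Replicate numbers of the labels were checked for pairing by the correlation of deviations from group means. It was 0.71, 0.27, 0.29 and 0.54 for 5xFAD with WT and 0.53, 0.60, 0.13 and 0.73 for Card9-/-5xFAD with Card9-/-, and between -0.64 and 0.49 for the Card9 comparisons, so the numbers were taken to pair the libraries of the transgene comparisons only. In both transgene comparisons the best match was the library of the same number for replicates 1 and 4 but not for replicates 2 and 3. The labels do not say what a number stands for.

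Alternatives were DESeq2 1.42.0 on all libraries or those compared, DESeq2 size factors, library totals, scaling without mitochondrial genes, other filters, an FDR of 0.05, edgeR on the groups compared, 1 surrogate variable (sva 3.50.0), a block for the replicate number and leaving out each library. A block within Card9 genotype, the ribosomal protein covariate and leaving out 2 or 4 libraries were chosen after seeing the data.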

Additional observations from a re-analysis of the deposited data

Results flagged for a closer look

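In 11 of 56 groups of 4 libraries examined, 1 library stood apart from the other 3 by more than Dixon's 95% critical value. Chance flags about 1 group in 20 where values are normally distributed and groups independent. Here CPM were used without a log and the groups share libraries, so the 11 cannot be set against that rate. All 11 were high values. Over all members together 157 of 448 groups did so, which are not independent because the same libraries recur.

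For the summed nuclear members it was Card9-/- replicate 4 at 48990 CPM, with the next library of that genotype at 10712 CPM. For the sum of the 6 low mitochondrial members it was WT replicate 1 at 40.14 CPM, Card9-/- replicate 4 at 1562 CPM and 5xFAD replicate 1 at 1077 CPM. For the sum of the pseudogenes on chromosome 1 it was WT replicate 1 at 127.8 CPM, Card9-/- replicate 4 at 1973 CPM, 5xFAD replicate 1 at 1562 CPM and Card9-/-5xFAD replicate 4 at 388.5 CPM.

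For single members it was WT replicate 1 in Cox6a2 at 78.7 CPM and in Cox4i1 at 1010 CPM, and Card9-/- replicate 4 in Cox6a2 at 132.8 CPM. Both values of Cox6a2 were below the lowest library with the transgenes (171 CPM). What sets these libraries apart was not tested.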

How the results depend on the processing

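The replicate numbers were taken to pair the libraries of the transgene comparisons, although not every library matched its own number best. The replicate block with 4 levels called 1 member in each transgene comparison and 15 with the transgenes averaged, and the replicate block within Card9 genotype called 37, 75 and 87, beside 2.11%, 2.34% and 12.9% of all genes in the former and 16%, 20.4% and 41.9% in the latter. The 0 calls of the Card9 comparisons and of the interaction stayed at 0 under every alternative run.

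Other settings moved the counts of called members in 5xFAD against WT, in Card9-/-5xFAD against Card9-/- and in their average (0, 0 and 13). They were 1, 1 and 4 without the filter on low counts (0.694%, 0.618% and 3.57% of all genes), 35, 71 and 85 with 1 surrogate variable, 16, 38 and 63 with the ribosomal protein covariate, and 12, 69 and 88 without the 4 highest libraries. All genes were called at 14.2%, 17.7% and 39.5% with the surrogate variable, at 18.6%, 25.1% and 41.4% with the covariate and at 7.97%, 16.7% and 34.5% without those libraries. Without Card9-/- replicate 4 and 5xFAD replicate 1 they were 1, 29 and 31, and without Card9-/- replicate 4 and Card9-/-5xFAD replicate 4 they were 3, 3 and 35, beside 1.97%, 6.5% and 15.9% and 3.98%, 3.55% and 20.6% of all genes. DESeq2 on all libraries gave 1 and 9 (3.24% and 4.82% of all genes), DESeq2 on the groups compared 2 in each, and edgeR on the groups compared 1 in 5xFAD against WT. Counts on the groups compared have no share of all genes beside them here, so they are not read as a result about the members. The average fell to 5 without TMM (22.5% of all genes) and to 3 at an FDR of 0.05 (6.34%). Leaving out 1 library gave 0 to 2, 0 to 13 and 3 to 67, where the 67 came without Card9-/- replicate 4 and beside 20.5% of all genes.

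With the ribosomal protein covariate the nuclear medians were -0.37, -0.28 and, averaged, -0.29, and the mitochondrial median of Card9-/-5xFAD against Card9-/- was 0.13. Without Card9-/- replicate 4 and 5xFAD replicate 1 the nuclear and mitochondrial medians were 1.93 and 1.51 in Card9-/-5xFAD against Card9-/-, -1.24 and -0.61 in Card9-/- against WT and 1.75 and 1.21 in the interaction, and the mitochondrial median of Card9-/-5xFAD against 5xFAD was 0.71. Without Card9-/- replicate 4 and Card9-/-5xFAD replicate 4 the medians were -1.24 and -0.61 in Card9-/- against WT, and the nuclear one was -0.63 in Card9-/-5xFAD against 5xFAD.

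Leaving out 1 library at a time gave nuclear medians of -0.090 to 1.90 in Card9-/-5xFAD against Card9-/-, -1.23 to 0.61 in Card9-/- against WT, -0.63 to 0.49 in Card9-/-5xFAD against 5xFAD and -0.56 to 1.46 in the interaction. The mitochondrial ones were -0.61 to 0.93 in Card9-/- against WT, the higher without WT replicate 1, and -0.35 to 0.69 in Card9-/-5xFAD against 5xFAD, the higher without 5xFAD replicate 1. In 5xFAD against WT the nuclear median stayed at 0.21 to 1.10.

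The mitochondrial to nuclear ratio taken as the median mitochondrial member over the median nuclear member was 3.38 in WT, 4.80 in Card9-/-, 3.10 in 5xFAD and 4.90 in Card9-/-5xFAD, and is not the ratio of sums, and per kilobase it was 0.412 in 5xFAD. Members called in the averaged test kept their direction in it under each alternative. For members not called, a change of direction was not checked. In all, 503 summary values under alternatives stayed within their limits, 26 moved, 33 counts rose and 12 fell. The cause of these shifts was not tested, apart from the stricter threshold and the fewer libraries themselves.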
